A study of Danio rerio with 4 samples.

Results

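Apolipoproteins are the protein parts of lipoproteins, the particles that carry fat and cholesterol between tissues. Apolipoprotein B forms the scaffold of the particles that leave the liver, the intestine and, in fish larvae, the yolk syncytial layer, which feeds the larva from its yolk. The smaller A, C and E proteins move between particles, where they shape high-density lipoprotein, switch lipases on or off and bind receptors. The 10 zebrafish genes described here were chosen by symbol as apoa1a, apoa1b, apoa2, apoa4b.1, apoba, apobb.1, apoea, apoeb, apoc1 and apoc2. All 10 were found, each as 1 gene ID, among 32520 distinct gene IDs.

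RNA of whole zebrafish larvae (Danio rerio) was sequenced in 4 libraries, 2 of untreated control larvae and 2 after exposure to PM2.5, fine smog particles. The exposure used 12000000 particles and ran from 72 to 120 hours after fertilization, and each group had 5 to 7 larvae. The labels give no strain, and nothing in them shows that the 2 libraries of a group were from different clutches or exposures, so p-values cover the spread among the 4 libraries alone, and that spread may be technical. Values are TPM, in which read numbers are divided by gene length and each library is brought to a common total, so a rise in some genes lowers the shares of others.

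Markers of the tissues known for apolipoprotein transcripts were present in all 4 libraries. The hepatocyte gene fabp10a stood at 1493 TPM and 1639.7 TPM in the controls and at 1163 TPM and 1327 TPM after exposure. The intestinal gene fabp2 stood at 438 TPM and 459 TPM in the controls and at 328 TPM and 357 TPM after exposure. Of 20874 genes tested with limma on log2(TPM + 1) at a Benjamini-Hochberg adjusted p under 0.05, 8.46% were higher and 2.62% lower in exposed larvae, 11.1% in all. At an unadjusted p under 0.05 in limma the share was 27.2% (4034 genes higher, 1635 lower). In 56.3% of the tested genes both exposed libraries lay on the same side of both controls (36.6% higher, 19.7% lower). With 2 libraries against 2, an exact two-sided permutation test of a single value cannot go below a p of 0.333, so single values such as sums and ratios are given with no p.

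Of the 10 apolipoprotein genes, apoeb and apoa1a rose and apoa1b fell in exposed larvae, while the other 7 did not pass the test. Those 2 higher and 1 lower genes stand beside a background of 8.46% and 2.62% of all tested genes. The 10 genes were chosen with earlier results of these data known, so their counts are a description only. The median log2 fold change of the 10 genes was -0.008, beside 0.07 over all tested genes. Exposed and control libraries did not overlap in 7 of the 10 genes, with 3 higher (apoeb, apoa1a, apoc2) and 4 lower (apoa1b, apoa2, apobb.1, apoea), beside 36.6% higher and 19.7% lower over all tested genes. After TMM-type rescaling (a trimmed mean of ratios between libraries) 1 member rose and 1 fell, beside 5.87% and 3.93% of all tested genes (9.79% in either direction). After quantile normalization 2 rose (apoeb and apoa1a) and 1, apoa2, fell, beside 6.34% and 4.61%. When the variance prior had no intensity trend 0 rose and 0 fell, beside 770 calls among 20874 tested genes.

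Summed together, the 10 genes made up a near-constant share of the larval transcripts. The summed level of the 10 genes was 8425 TPM and 8229 TPM in the control libraries and 8790.1 TPM and 8587 TPM in the exposed libraries, between 0.823% and 0.879% of a library. Both exposed sums were above both control sums with TPM as deposited. The ratio of the exposed to the control mean was 1.04 as deposited and turned to 0.974 after TMM-type rescaling, so no direction is given for the sum. Without apoa1a and apoeb, left out after their rise was seen, the other 8 genes summed to 5713 TPM and 5568 TPM in the controls. After exposure these 8 summed to 5227 TPM and 5184 TPM, a description only because of that choice. Levels of single genes spanned a 628-fold range in controls. In order of control mean they ran apoa2, apoa1a, apoa1b, apoc1, apoeb, apoa4b.1, apoea, apobb.1, apoc2 and apoba. No neighbours in that order overlapped within the controls or within the exposed libraries. The order changed at 2 places after exposure, where apoa1a passed apoa2 and apoeb passed apoc1.

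**Figure D1:**
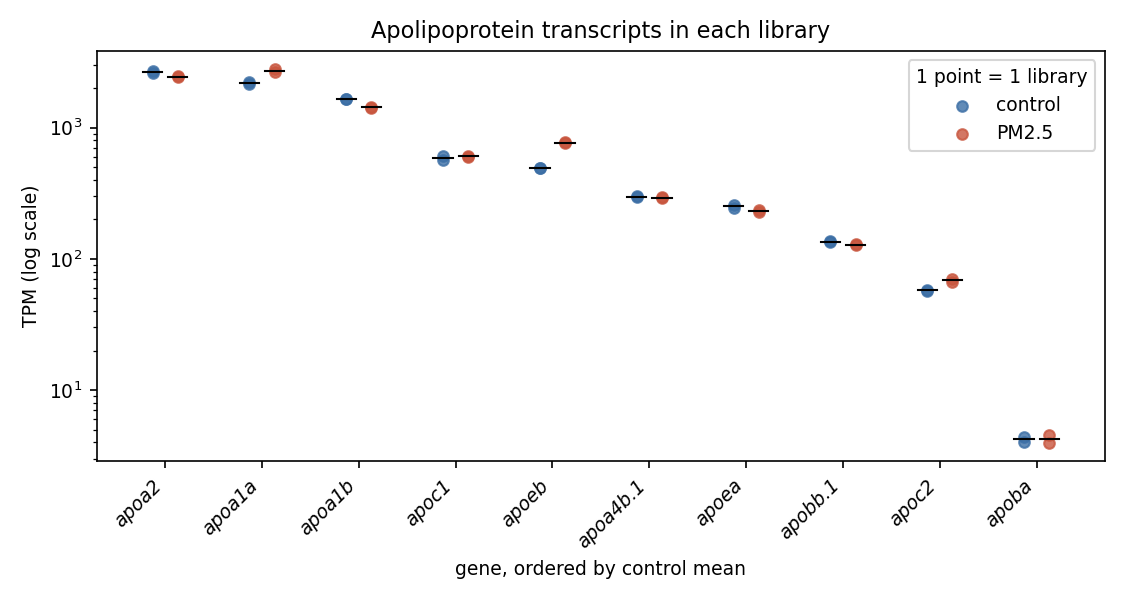
TPM on a log scale (y axis) for the 10 apolipoprotein genes (x axis, ordered by control mean), with 1 point per library, control in blue and PM2.5 in red, and a line at each group's mean. The exposed libraries sit above the controls for apoa1a (2645 and 2783 against 2172 and 2222 TPM) and apoeb (759 and 779.8 against 489 and 491 TPM), and apoba is far below all others at 3.97 to 4.54 TPM.

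The structural proteins of high-density lipoprotein were the most abundant, with apoa2, apoa1a and apoa1b ranked 63, 66 and 105 among all genes by mean TPM. Apolipoprotein A1 is the main protein of high-density lipoprotein and takes up cholesterol from cells, and zebrafish carry it as a duplicated gene. The copy apoa1a (ENSDARG00000012076, chromosome 5) was at 2222 TPM and 2172 TPM in the control libraries and at 2783 TPM and 2645 TPM in the exposed libraries. Both exposed libraries were above both controls. It rose from 2197 ± 35.2 to 2714 ± 97.7 TPM (SD, n = 2), by 23.5%, with a log2 fold change of 0.30 (SE 0.04, limma adjusted p = 0.0048). The call was lost after TMM-type rescaling (limma adjusted p = 0.185) and when the variance prior had no intensity trend (0.196). It was also lost without control replicate 1 (log2 fold change 0.32), control replicate 2 (0.29) or PM2.5 replicate 1 (0.27).

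The other copy, apoa1b (ENSDARG00000101324, chromosome 15), moved the opposite way. It was at 1648 TPM and 1670.1 TPM in the controls and at 1417 TPM and 1439 TPM in the exposed libraries, which were both below the controls. It fell from 1659 ± 15.7 to 1428 ± 15.4 TPM (SD, n = 2), a log2 fold change of -0.22 (SE 0.03, limma adjusted p = 0.010). The call was lost after quantile normalization (limma adjusted p = 0.054) and when the variance prior had no intensity trend (0.297). It was also lost whichever library was left out (log2 fold change -0.23 to -0.20).

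A ratio of paralogs within a library does not change when the whole library is rescaled by a constant. The ratio of apoa1a to apoa1b was 1.348 and 1.301 in the control libraries and 1.96 and 1.84 in the exposed libraries. The groups were apart by 0.52 on the log2 scale, beside gaps of 0.05 between the controls and 0.10 between the exposed libraries. Together the A1 genes summed to 3869.6 TPM and 3842 TPM in the controls and to 4200.2 TPM and 4084 TPM after exposure.

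The gene apoa2 (ENSDARG00000015866, chromosome 16) encodes another high-density lipoprotein protein. It was at 2703 TPM and 2592 TPM in the controls and at 2474 TPM and 2422 TPM in the exposed libraries. The groups did not overlap, with the exposed libraries lower, and the log2 fold change of -0.11 (95% confidence interval -0.19 to -0.03) did not pass (limma adjusted p = 0.089). It passed as lower after quantile normalization (adjusted p = 0.044).

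Apolipoprotein E is a ligand of receptors of the low-density lipoprotein receptor family, through which cells take up particles. The gene apoeb (ENSDARG00000040295, chromosome 16), known in zebrafish from the yolk syncytial layer, the epidermis and microglia, was at 491 TPM and 489 TPM in the control libraries. In the exposed libraries it was at 779.8 TPM and 759 TPM. The control libraries were nearly equal, and both exposed libraries stood far above them. It rose from 490 ± 1.06 to 769 ± 14.7 TPM (SD, n = 2), by 57.1%, with a log2 fold change of 0.65 (SE 0.04, 95% confidence interval 0.56 to 0.74, limma adjusted p = 0.00046). It passed in all 4 fits that left out 1 library (adjusted p between 0.017 and 0.033) and after TMM-type rescaling (0.0087), and it missed the threshold when the variance prior had no intensity trend (0.061).

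Its paralog apoea (ENSDARG00000102004, chromosome 19) was at 259 TPM and 244 TPM in the controls and at 234 TPM and 227 TPM in the exposed libraries. The exposed libraries were lower with no overlap, and the log2 fold change of -0.12 (95% confidence interval -0.26 to 0.008) did not pass (limma adjusted p = 0.204). The ratio of apoeb to apoea went from 1.891 and 2.004 in the controls to 3.33 and 3.34 in the exposed libraries. That is a log2 difference of 0.78, beside gaps of 0.08 between the controls and 0.002 between the exposed libraries. The share of apoeb in the summed TPM of the 10 genes was 5.82% and 5.94% in the controls and 8.87% and 8.84% after exposure.

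**Figure D2:**
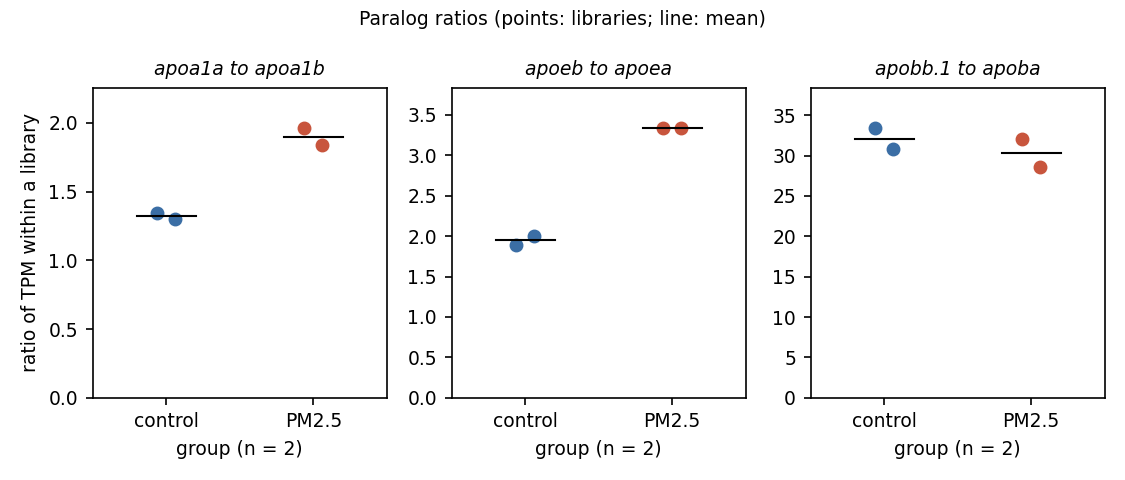
Ratio of TPM within each library (y axis, starting at 0) for 3 paralog combinations, by group (x axis), with 1 point per library and a line at the mean of 2. The ratios of apoa1a to apoa1b and of apoeb to apoea are higher in both exposed libraries (1.84 and 1.96, 3.33 and 3.34) than in both controls, and the ratio of apobb.1 to apoba overlaps between the groups.

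Apolipoprotein B stays with its particle from assembly to uptake, and each particle carries a single copy. Transcripts of the B genes came almost wholly from apobb.1 (ENSDARG00000022767, chromosome 20), at 134 TPM and 136 TPM in the controls and 127 TPM and 129.6 TPM in the exposed libraries. The exposed libraries were slightly lower with no overlap, and the log2 fold change was -0.07 (95% confidence interval -0.21 to 0.06, limma adjusted p = 0.463). The paralog apoba (ENSDARG00000042780, chromosome 17) was at 4.02 TPM and 4.41 TPM in the controls and 3.97 TPM and 4.54 TPM in the exposed libraries, with full overlap. Its log2 fold change of 0.01 (95% confidence interval -0.45 to 0.47) turned sign after TMM-type rescaling (-0.07), quantile normalization (-0.11) and rescaling without the 100 most abundant genes (-0.04). The ratio of apobb.1 to apoba was 33.4 and 30.8 in the controls and 32.01 and 28.53 after exposure.

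Apolipoprotein C2 is the cofactor that lipoprotein lipase needs to release fatty acids, and apolipoprotein C1 is known in mammals to slow lipases and particle uptake. The gene apoc2 (ENSDARG00000092155, chromosome 16) was at 58.2 TPM and 57.2 TPM in the controls and at 67.0 TPM and 70.8 TPM in the exposed libraries. The exposed libraries were higher with no overlap, and the log2 fold change of 0.25 (95% confidence interval 0.07 to 0.43) did not pass (limma adjusted p = 0.083). The gene apoc1 (ENSDARG00000092170, chromosome 16) was at 605 TPM and 569 TPM in the controls and at 608 TPM and 601 TPM in the exposed libraries, so that the groups overlapped. Its log2 fold change was 0.04 with TPM as deposited (95% confidence interval -0.07 to 0.15) and -0.05 after TMM-type rescaling.

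Apolipoprotein A4 is made mostly by the intestine during fat absorption. The gene apoa4b.1 (ENSDARG00000040298, chromosome 16) was at 301 TPM and 295 TPM in the controls and at 296 TPM and 289 TPM in the exposed libraries. The groups overlapped, and the log2 fold change was -0.03 (95% confidence interval -0.14 to 0.09, limma adjusted p = 0.759).

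**Figure D3:**
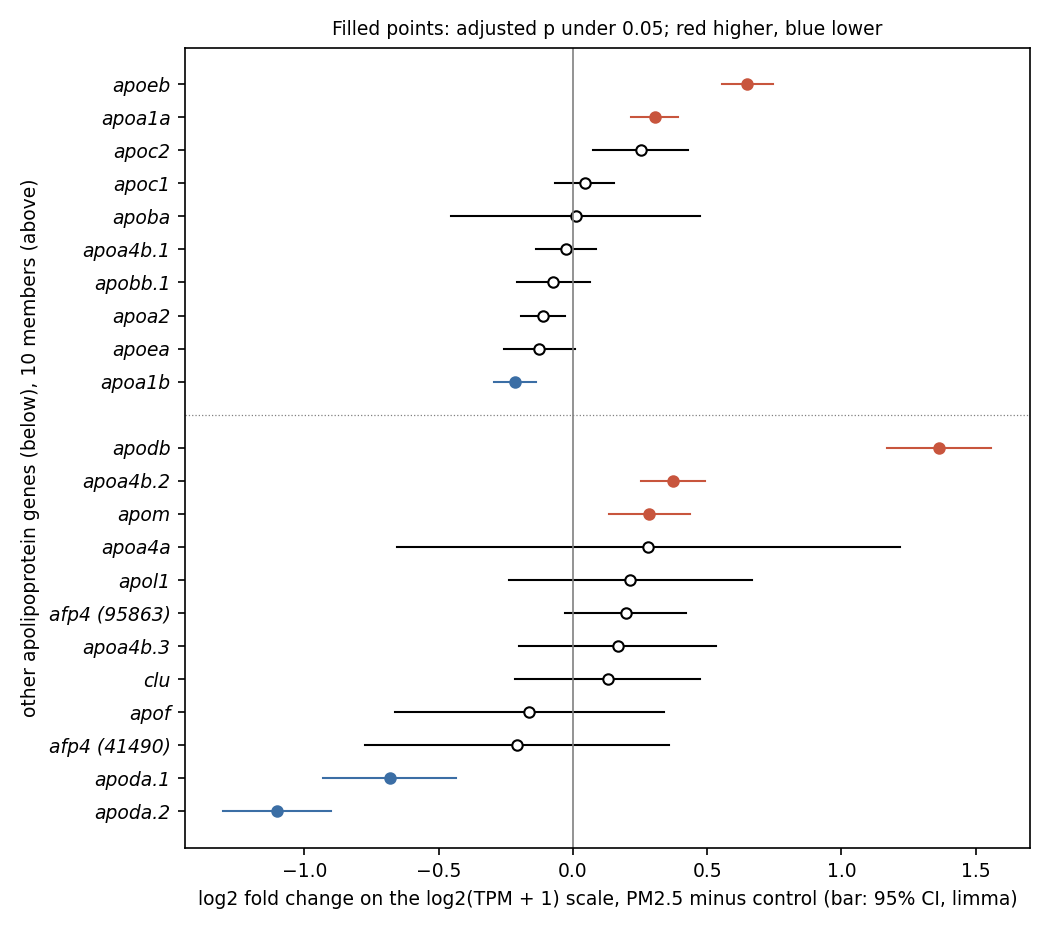
Log2 fold change of PM2.5 against control on the log2(TPM + 1) scale (x axis) with its 95% confidence interval from limma, for the 10 apolipoprotein genes (upper block) and 12 other tested gene IDs listed with them (lower block). Filled points passed an adjusted p under 0.05 (red higher, blue lower): apoeb and apoa1a above 0 and apoa1b below 0 in the upper block, and apodb, apoa4b.2, apom, apoda.1 and apoda.2 in the lower block; the 2 gene IDs listed as afp4 are told apart by their last digits.

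The 5 genes on chromosome 16 are close neighbours. In the RefSeq gene order of a later genome build (used for order only) they fell within a run of 11 genes, in the order apoa4b.1, apoa4b.3, apoa4b.2, apoeb, apoc1, apoc4, apoa2 and apoc2 with 3 other genes between them. Within this run apoeb rose while its direct neighbour apoc1 overlapped between the groups. The ratio of apoeb to apoc1, picked after its values were seen, was 0.811 and 0.860 in the controls and 1.28 and 1.26 in the exposed libraries. On the other side of apoeb, apoa4b.2 (ENSDARG00000020866) was at 334 TPM and 316 TPM in the controls and 423 TPM and 419 TPM in the exposed libraries. It rose with a log2 fold change of 0.37 (limma adjusted p = 0.0068), a call lost after TMM-type rescaling (adjusted p = 0.089) and whichever library was left out (0.054 to 0.087). The copies apoa4b.1, apoa4b.2 and apoa4b.3 may share reads, and the sources used here do not say how such reads were counted. The gene apoc4 had 0.258 TPM in control replicate 1, 0 in control replicate 2, and 1.32 and 0.877 TPM after exposure, under the mean of 1 TPM needed for the test.

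**Figure D4:**
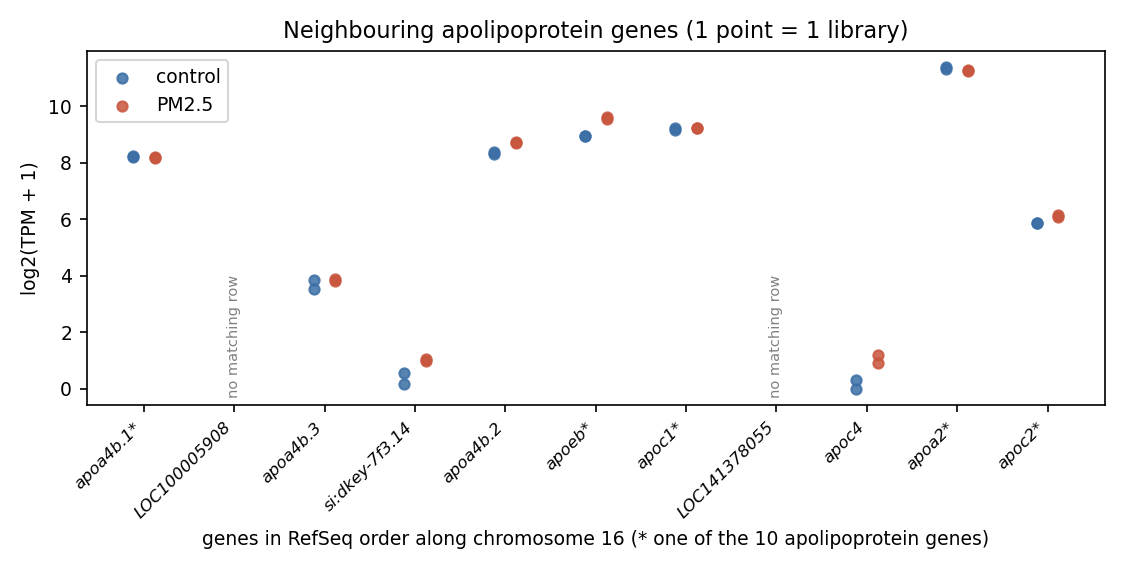
Log2(TPM + 1) (y axis) of the 11 genes between apoa4b.1 and apoc2 in RefSeq order along chromosome 16 (x axis), with 1 point per library, control in blue and PM2.5 in red; an asterisk marks 5 of the 10 apolipoprotein genes, and 2 genes matched no gene ID. The exposed points lie above the controls for apoa4b.2, apoeb and apoc2 and for the low genes si:dkey-7f3.14 and apoc4. They lie below the controls for apoa2, and the points of apoa4b.1, apoa4b.3 and apoc1 overlap.

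A further 14 gene IDs were listed with the apolipoproteins, those under the symbol afp4 included, and 12 were tested. Of these 3 rose and 2 fell, beside 8.46% and 2.62% of all tested genes. Their median log2 fold change was 0.18, beside 0.07 over all tested genes. Apolipoprotein D is a lipocalin that binds small lipids and is not restricted to blood lipoproteins. Its gene apodb (chromosome 24) was at 37.6 TPM and 38.0 TPM in the controls and rose to 103.7 TPM and 94.4 TPM in the exposed libraries, with a log2 fold change of 1.36 (limma adjusted p = 0.00042). The apoD genes apoda.2 and apoda.1 on chromosome 2 fell instead. The level of apoda.2 was 65.5 TPM and 65.7 TPM in the controls and 29.0 TPM and 31.2 TPM after exposure (log2 fold change -1.10, limma adjusted p = 0.0010). The level of apoda.1 was 44.6 TPM and 52.0 TPM in the controls and 29.8 TPM and 29.4 TPM after exposure (log2 fold change -0.68, limma adjusted p = 0.011). The calls of apodb and apoda.2 held in all 4 fits that left out 1 library, and that of apoda.1 in 0 of 4. The fifth gene, apom, named after its value was seen, encodes a lipocalin that carries sphingosine 1-phosphate and rose with a log2 fold change of 0.29 (limma adjusted p = 0.038). Its call was lost after TMM-type rescaling (adjusted p = 0.239), after quantile normalization (0.159), without an intensity trend and whichever library was left out (0.108 to 0.218).

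In the pathway around the apolipoproteins, 17 of 120 tested genes rose and 6 fell with TPM as deposited, the other apolipoproteins included, beside 8.46% and 2.62% of all tested genes. After TMM-type rescaling 10 rose and 9 fell, beside 5.87% and 3.93% of all tested genes. After quantile normalization 9 rose and 9 fell, beside 6.34% and 4.61%. Most of the calls with TPM as deposited were lost when any 1 library was left out, as were most calls over all tested genes.

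Of 20 tested genes of lipoprotein assembly, 5 rose and 1 fell (median log2 fold change -0.02), beside 8.46% and 2.62% of all tested genes. The gene sar1b, which encodes a small GTPase of the vesicles that carry new lipoproteins out of the endoplasmic reticulum, was at 50.1 TPM and 47.0 TPM in the controls and rose to 74.7 TPM and 71.0 TPM (log2 fold change 0.58, limma adjusted p = 0.0076). Its paralog sar1ab, named after its value was seen, was the gene that fell (log2 fold change -0.43, limma adjusted p = 0.045), a call lost without an intensity trend, without a filter on low values and in all 4 fits with a library left out (adjusted p from 0.127 to 0.257). The gene p4hb, whose disulfide isomerase is the partner subunit of the lipid transfer protein that loads apolipoprotein B, rose from 56.2 TPM and 58.9 TPM to 96.2 TPM and 84.7 TPM. The acyltransferase genes mogat3b and lpcat3 also rose, by 0.85 and 0.63 on the log2 scale. The calls of sar1b, mogat3b and lpcat3 were lost whichever library was left out, and that of p4hb in 3 of those 4 fits. After quantile normalization mogat3b (limma adjusted p = 0.057) and lpcat3 (0.070) did not pass, nor did lpcat3 after TMM-type rescaling (0.066). The gene mttp, which encodes the lipid-loading subunit itself, was at 8.25 TPM and 8.23 TPM in the controls and 9.80 TPM and 10.6 TPM after exposure and did not pass (log2 fold change 0.28, limma adjusted p = 0.256).

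Of 20 tested receptor genes 2 rose and 0 fell in limma (median log2 fold change -0.08). The share that rose was near the 8.46% over all tested genes, of which 2.62% fell. At an unadjusted p under 0.05 in limma, 3 were higher and 2 lower, beside 27.2% of all tested genes in either direction. The low-density lipoprotein receptor gene ldlrb rose from 20.8 TPM and 24.5 TPM to 57.4 TPM and 49.2 TPM, with a log2 fold change of 1.20 (limma adjusted p = 0.0028). Of the 4 fits that left out a library, it lost the call in the 1 without PM2.5 replicate 1 (adjusted p = 0.061). The receptor chaperone gene lrpap1 rose by 0.46, a call lost after either rescaling (adjusted p = 0.092 and 0.089) and whichever library was left out. The paralog ldlra was at 23.6 TPM and 27.2 TPM in the controls and 17.97 TPM and 22.70 TPM after exposure (log2 fold change -0.31, limma adjusted p = 0.225). The high-density lipoprotein receptor gene scarb1 had a log2 fold change of 0.11 with TPM as deposited and -0.01 after quantile normalization. The scavenger receptor gene cd36 (-0.43) and the endocytic receptor gene lrp2a (-0.40) did not pass.

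Of 20 tested genes for lipases and lipid exchange 2 rose and 2 fell (median log2 fold change -0.01), beside 8.46% and 2.62% of all tested genes. The cholesterol export genes abca1a, whose product loads apolipoprotein A1, and abcg1 were the genes that fell. The level of abca1a was 55.8 TPM and 64.5 TPM in the controls and 34.3 TPM and 41.9 TPM after exposure (log2 fold change -0.65, limma adjusted p = 0.026). The level of abcg1 was 19.90 TPM and 21.98 TPM in the controls and 13.1 TPM and 13.9 TPM after exposure (-0.60, limma adjusted p = 0.027). Other export genes, named after their values were seen, did not pass. They were abca1b (0.16, limma adjusted p = 0.524), abcg5 (0.07, 0.913) and abcg8 (-0.30, 0.624). The lipase gene lipia (1.29) and the lipase maturation gene lmf2b (0.51) rose, while lpl, the target of apolipoprotein C2, had a log2 fold change of -0.20 (limma adjusted p = 0.178) and lcat, which esterifies cholesterol on high-density lipoprotein, one of 0.13 (0.703). None of the calls of abca1a, abcg1, lipia and lmf2b held when a library was left out. That of lmf2b was also lost after TMM-type rescaling (limma adjusted p = 0.067) and after quantile normalization (0.066).

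Of 25 tested genes of cholesterol synthesis and its control, 3 rose and 1 fell, beside 8.46% and 2.62% of all tested genes. Their median log2 fold change was 0.20, beside 0.07 over all tested genes. The sterol synthesis genes nsdhl, cyp51 and msmo1 rose by 0.84, 0.77 and 0.55 on the log2 scale (limma adjusted p between 0.025 and 0.034), and insig1, whose product holds back sterol synthesis, fell by 0.76. None of these calls held in a fit with a library left out. That of msmo1 was also lost after TMM-type rescaling (limma adjusted p = 0.074) and after quantile normalization (0.077). Of 23 tested transcription factor genes 2 rose and 0 fell in limma (median 0.04). The share that rose was near the 8.46% over all tested genes. At an unadjusted p under 0.05 in limma, 4 were higher and 0 lower, beside 27.2% of all tested genes in either direction. The factor genes that rose were cebpb (log2 fold change 0.43) and foxa3 (0.96). Both calls were lost whichever library was left out, and that of foxa3 also after quantile normalization (limma adjusted p = 0.052). The gene hnf4a, an activator of many apolipoprotein genes in liver and intestine, was at 2.64 TPM and 4.31 TPM in the controls and 2.80 TPM and 3.25 TPM after exposure (log2 fold change -0.13, limma adjusted p = 0.797). Its paralog hnf4b was at 2.44 TPM and 2.94 TPM in the controls and 3.83 TPM and 5.69 TPM after exposure. It was higher with no overlap and did not pass (0.63, limma adjusted p = 0.166), nor did cebpa (0.31, 0.108).

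**Figure D5:**
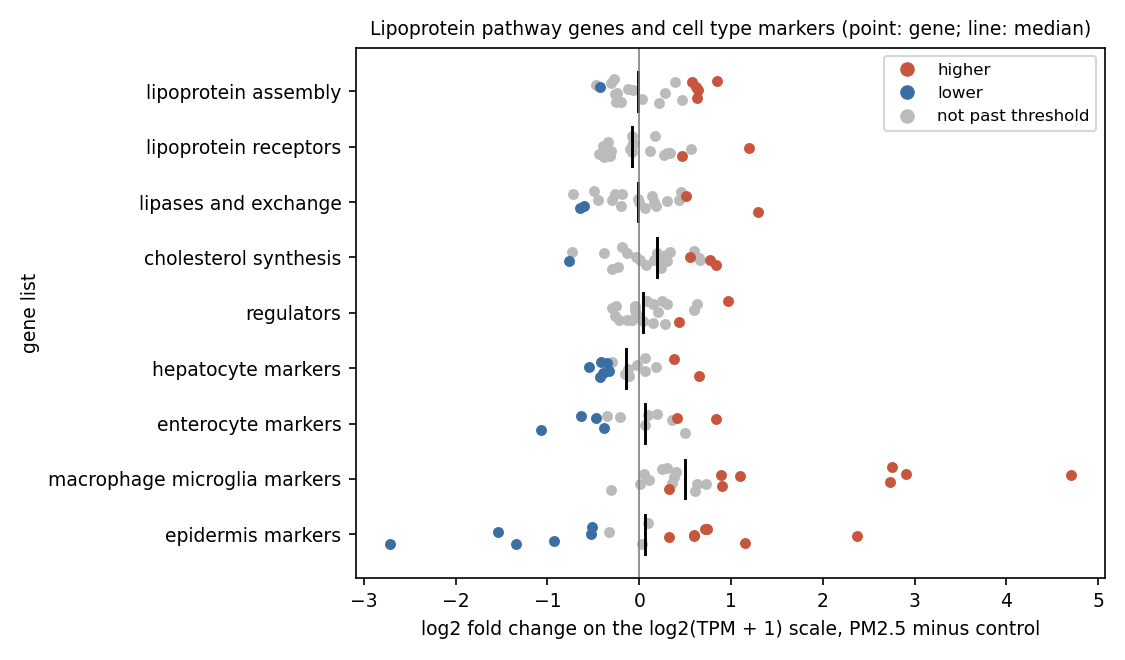
Log2 fold change of PM2.5 against control on the log2(TPM + 1) scale (x axis) for each tested gene of 5 pathway lists and 4 cell type marker lists (y axis), red where higher and blue where lower at an adjusted p under 0.05, with a black line at the median of a list. Medians of the pathway lists lie between -0.08 and 0.20, and that of the macrophage and microglia markers is at 0.50.

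Some hepatocyte and enterocyte markers, of cell types that make apolipoproteins, moved as well, in both directions. In RNA of whole larvae a change in the number of cells and a change in RNA per cell cannot be told apart. The 18 hepatocyte markers summed to between 4505 and 4619.95 TPM in the controls and between 4445 and 4588 TPM after exposure. Of 16 tested, 2 rose and 6 fell, beside 8.46% and 2.62% of all tested genes. The vitamin D binding protein gene gc rose by 0.65 on the log2 scale, while hpda, serpina1l and fabp10a fell by 0.55, 0.39 and 0.33. The transferrin gene tfa had a log2 fold change of -0.12. The call of gc held in all 4 fits with a library left out, and those of hpda, serpina1l and fabp10a in 0 of them; cpn1 was listed at 0 in all libraries. The 14 enterocyte markers summed to between 2153 and 2155 TPM in the controls and between 1819 and 2008 TPM after exposure. Of 13 tested 2 were higher and 4 lower, beside the same shares of all tested genes. Among them rbp2a fell by 0.63, slc15a1b by 1.07, fabp1b.1 by 0.47 and fabp2 by 0.39 on the log2 scale, and anpepb rose by 0.84. The call of rbp2a held in all 4 fits with a library left out and those of the other 4 genes in 1 of them. The 5 yolk syncytial layer markers summed to between 52.4 and 59.6 TPM in the controls and between 64.0 and 65.1 TPM after exposure. Of the 3 tested, slc40a1, ttpa and gata5, 0 passed in limma, and 1 was higher at an unadjusted p under 0.05. Of all tested genes 27.2% were under that p in either direction, so with 3 genes no result is read from it.

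Beside the rise of apoeb stand the markers of macrophages and microglia. The 22 genes summed to between 293 and 305 TPM in the controls and between 709.6 and 724 TPM after exposure. Of 20 tested, 8 rose and 0 fell in limma (0 lower at an unadjusted p under 0.05), beside 8.46% and 2.62% of all tested genes. Among them cd68, ctss2.2, grn2 and mpeg1.2 rose by 2.75, 2.90, 2.73 and 4.70 on the log2 scale. The gene mpeg1.1 did not pass (0.63, limma adjusted p = 0.157). Fewer of these markers rose when any 1 library was left out, as did fewer of all tested genes. Of 16 epidermis markers 7 rose and 6 fell, beside the same shares of all tested genes. They summed to between 16224 and 16395 TPM in the controls and between 8551 and 8626 TPM after exposure. The 5 keratin-type genes krt4, krt5, krt91, cyt1 and cyt1l, split off after their values were seen, summed to between 14974 and 15196 TPM in the controls and between 7012 and 7139.7 TPM after exposure, with falls of krt4, cyt1, cyt1l and krt5 by 1.34, 1.54, 2.71 and 0.93 on the log2 scale. The other 11 summed to between 1199 and 1249.6 TPM in the controls and between 1487 and 1539 TPM after exposure. Among these 11, anxa1b, cdh1 and epcam, named after their values were seen, rose by 2.38, 1.153 and 0.74 on the log2 scale, calls that held in all 4 fits with a library left out. Over the 16 epidermis markers, fewer rose and as many fell in those fits, while over all tested genes fewer rose and fewer fell. The 15 skeletal muscle markers held 8.9% to 10.9% of a library. In limma 14 fell and 0 rose (0 higher at an unadjusted p under 0.05), again beside those shares. Among the muscle genes that fell were acta1a (-0.71), acta1b (-0.57), atp2a1 (-0.42) and casq1a (-0.96). The number that fell was 2 without an intensity trend, 8 with TMM-type rescaling and 11 with quantile normalization. Over all tested genes 105, 819 and 962 fell in these settings, in place of 547. Fewer muscle markers passed when any 1 library was left out, as did fewer of all tested genes. The part of any of these marker changes in the apolipoprotein values was not tested.

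The genes most like the 2 members with the smallest p were sought among 2032 other genes whose mean was 50 TPM or more, by the root mean square difference of centred log2(TPM + 1) over the 4 libraries. Nearest to apoeb were WDR1 (difference 0.0052, log2 fold change 0.64), capns1a (0.0126, 0.67) and psma4 (0.0137, 0.67). Nearest to apoa1a were ran (0.0072, 0.30), gstp1 (0.0086, 0.32) and etfb (0.0094, 0.31). Genes picked by this distance have fold changes near that of the member by construction, so the likeness is a description only. The differences rest on 4 libraries in 2 groups.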

How the data were processed

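Whole-larva RNA was sequenced as paired-end reads of 150 bases, per the labels' protocols, which name more than 1 extraction kit and sequencer. The submitters' processing notes name cutadapt 1.18, STAR 2.6.1c and the genome build GRCz11. The sources used here do not give the counting program, annotation or strand setting. A single table of TPM was deposited, from which 405 repeated rows were dropped. TPM keeps no depth, so the reads behind a value are unknown.

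Genes whose mean reached 1 TPM were tested with limma 3.58.1 (R 4.3.3) on log2(TPM + 1) values (group as the only term, intensity trend, two-sided, Benjamini-Hochberg adjustment over all tested genes, threshold 0.05), after a check on simulated data. Fold changes on this scale understate the changes of low genes. Of 221 pathway and marker list entries 215 matched a gene ID. The members and lists were chosen with earlier results of these data known. Named genes were all members, 4 per pathway list and 3 per marker list with the smallest p, and some fixed genes. The alternatives were another pseudocount (0.1 TPM), no filter or a mean of 5 TPM, TMM-type, quantile and reduced-total rescaling, no trend, a replicate block and leaving out each library; for paralog ratios the last was chosen after seeing the data. Protein and promoter sequences were not used here.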

Additional observations from a re-analysis of the deposited data

How the results depend on the processing

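Without an intensity trend apoa1a (0.30, adjusted p = 0.196), apoa1b (-0.22, 0.297) and apoeb (0.65, 0.061) lost their calls in limma, leaving 0 higher and 0 lower of the 10 apolipoprotein genes, 3 higher and 1 lower pathway genes, and 770 of 20874 genes called (665 higher, 105 lower) in place of 2313 (1766 and 547). After TMM-type rescaling apoa1a was at 0.21 (adjusted p = 0.185), which left 1 higher apolipoprotein gene, apoba and apoc1 turned to -0.0693 and -0.0549, pathway genes higher numbered 10 and the ratio of summed TPM was 0.974. After quantile normalization, which shifted the all-gene median log2 fold change by -0.11, apoa1b was at -0.16 (0.054), apoa2 passed at -0.0892 (0.044), apoba was at -0.11, scarb1 at -0.0131 and gata5 at -0.14, with 962 genes lower and 9 pathway genes higher. Higher genes made up 76.4% of all calls as deposited, 59.9% after TMM-type rescaling, 57.9% after quantile normalization and 66.1% without the 100 most abundant genes. In that last setting apoba was at -0.0440, apoc1 at -0.0237 and gata5 at -0.0371. After TMM-type rescaling gata5 was at -0.0542, and with a pseudocount of 0.1 TPM at -0.0146. Without a filter 27099 genes were tested and 8 pathway genes were higher. With a mean of 5 TPM apoba could not be fitted.

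Leaving out 1 library gave apoa1a 0.27 to 0.34, apoa1b -0.23 to -0.20, apoba -0.0676 to 0.0891, apoc1 -0.000862 to 0.0886, gata5 -0.26 to 0.26, hnf4a -0.40 to 0.14, lcat -0.0619 to 0.33 and ttpa -0.23 to 0.15. It left 377 to 857 genes called (288 to 611 higher, 77 to 246 lower), 1 to 2 higher and 0 lower apolipoprotein genes, and 1 to 3 higher and 1 lower pathway genes. The log2 difference of the ratio of apoa1a to apoa1b stayed between 0.47 and 0.57 and that of apoeb to apoea between 0.73 and 0.82. Whether libraries of the same replicate number are paired is unknown. The correlation of their deviations was 0.065 across genes, and 2 pairs cannot decide it. With a replicate block apoa2 passed as lower (-0.11, adjusted p = 0.0498), so that 2 apolipoprotein genes were lower, and 2853 genes were called. Except where a setting is named, the cause of a change was not tested. Reads behind each TPM are unknown, which limits low genes such as apoba most.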
